A study of Mus musculus with 14 samples.

Results

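The genes described here are 4 mouse chemokine ligands that attract neutrophils, Cxcl1, Cxcl2, Cxcl3 and Cxcl5, and their receptor Cxcr2. They were taken by symbol from the deposited tables, in which they are 5 of 54532 listed genes, and each symbol matched 1 row. All 5 also passed the filter on low counts, which kept 15360 genes. RNA-seq libraries had been made from 14 whole tumours of 4T1 cells, a mouse triple-negative mammary carcinoma line. In all groups 1000000 cells were placed in the mammary area under the skin, and intraperitoneal injections of 100 µL began on day 9, at a tumour volume near 100 mm3. The 3 groups were PBS alone (PBS, 4 libraries), cyclophosphamide at 100 mg/kg in PBS (CTX100, 5 libraries) and cyclophosphamide at 140 mg/kg in PBS (CTX140, 5 libraries). Cyclophosphamide is an alkylating chemotherapy drug. The 3 cycles of injection were 6 days apart, and tissue was collected 3 days after the last. The labels give neither strain, sex nor age of the mice, nor whether each library came from a separate animal, and p-values therefore reflect only how these libraries vary.

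Chemokines are small secreted proteins that direct the movement of white blood cells. Cxcl1, Cxcl2, Cxcl3 and Cxcl5 belong to the CXC chemokines that carry a glutamate-leucine-arginine motif before their first cysteines, and they bind Cxcr2, a G-protein-coupled receptor carried mainly by neutrophils in mice. Their genes are known targets of the transcription factor NF-κB and are induced by interleukin-1 and tumour necrosis factor in epithelial cells, fibroblasts and myeloid cells, carcinoma cells included.

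The 4 ligand genes lie in 1 cluster of 146.579 kb on chromosome 5, all on the plus strand. On mm10, Cxcl5 (ENSMUSG00000029371) is at chr5:90759360-90761624, Cxcl3 (ENSMUSG00000029379) at chr5:90786103-90789600, Cxcl1 (ENSMUSG00000029380) at chr5:90891241-90893115 and Cxcl2 (ENSMUSG00000058427) at chr5:90903871-90905938. Cxcr2 (ENSMUSG00000026180) is on the plus strand of another chromosome, at chr1:74153989-74161246. No other listed gene overlaps any of the 5. RefSeq promoters, each of 250 bases before and 50 after the start on GRCm38.p6, were matched for 4 of the 5 genes, all but Cxcl5. The 150 bases before the start are shown for Cxcl1, Cxcl2 and Cxcl3 because the NF-κB consensus was found in all of them. All are written 5′ to 3′ on the plus strand, and capitals mark the NF-κB consensus match.
Cxcl1, chr5:90891095-90891244: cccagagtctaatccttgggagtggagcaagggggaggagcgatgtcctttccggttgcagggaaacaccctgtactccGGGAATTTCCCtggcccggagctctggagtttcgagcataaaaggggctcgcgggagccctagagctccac
Cxcl2, chr5:90903749-90903898: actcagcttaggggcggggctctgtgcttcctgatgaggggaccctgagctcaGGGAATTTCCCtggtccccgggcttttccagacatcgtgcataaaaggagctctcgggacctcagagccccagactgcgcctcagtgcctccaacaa
Cxcl3, chr5:90785951-90786100: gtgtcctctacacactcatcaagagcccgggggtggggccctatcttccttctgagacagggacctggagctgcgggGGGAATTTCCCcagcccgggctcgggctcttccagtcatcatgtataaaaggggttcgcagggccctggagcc

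The match was made of the same 11 letters in all 3 promoters, GGGAATTTCCC. These began 71 bases before the start in Cxcl1, 97 in Cxcl2 and 73 in Cxcl3. The κB consensus matched there on both strands, with the matches overlapping. This was the longest run of letters that the 3 promoters shared before the start, and the other shared run of at least 8 letters was ATAAAAGG, which began 34, 57 and 29 bases before the start. The κB consensus occurred in 8.46% of 32851 promoters of this length, searched on both strands. The 11 letters occurred in 14 of them, or 0.0426%. Besides the 3 chemokine genes, 4 of the genes with these letters were tested for expression. Of these 1, Hpn, was higher in CTX140 than in PBS tumours (log2 fold change 1.54 ± 0.41 SE, adjusted p = 0.0161, edgeR). Il16, Lyzl4 and Zfp84 did not pass (adjusted p = 0.320, 0.811 and 0.693, edgeR). Over all genes tested 11.1% were called higher in that comparison, and 4 genes are too few to set against that share. Neither TGANTCA, the AP-1 motif (in 7.81% of promoters), nor the motif bound by STAT factors, TTC and GAA with any 3 bases between them (in 8.30%), was found in the 4 promoters on either strand. TATAAA, present in 13.6% of promoters, was found in that of Cxcl3, where it overlaps the shared run. No κB match was found in the 300 bases of the Cxcr2 promoter. These matches describe letters in a window and show no binding.

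Library totals ran from 14423875 to 19282726 counts, and the 5 genes had between 217 and 8095 counts in every library. Levels within a gene are given as CPM, the counts scaled to a common library size after trimmed-mean normalisation. The share of counts from mitochondrial genes was 3.09% to 9.81%, highest in CTX140 library 1. The labels call the material a triple-negative breast cancer cell. The epithelial keratins Krt8 (692 to 1201 CPM) and Krt18 (456 to 995 CPM) were high in every library, and Epcam was at 0.546 to 61.9 CPM. RNA of other cell types was present as well: the summed CPM of 21 mature neutrophil markers lay between 1236 and 3044, and that of 9 macrophage markers between 750 and 4225. In bulk tissue fewer cells of a type and less RNA per cell cannot be told apart.

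All 4 ligands and the receptor were higher in CTX140 than in PBS tumours, between 1.72-fold for Cxcr2 and 7.07-fold for Cxcl3. In CTX100 tumours 1 of the 5, Cxcl3, passed the test, at 3.33-fold the PBS level. The values of each gene are given by library, in order of library number.

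Cxcl3 had the largest fold changes of the 5 against PBS. It measured 23.0, 18.4, 24.9 and 11.9 CPM in PBS, 57.3, 71.1, 57.5, 61.3 and 77.4 CPM in CTX100, and 97.8, 60.8, 185, 125 and 221 CPM in CTX140. Every treated library lay above every PBS library, while the CTX100 and CTX140 ranges overlapped through CTX140 library 2. The log2 fold change was 2.82 ± 0.34 (SE) in CTX140 against PBS (adjusted p = 0.000170, edgeR) and 1.73 ± 0.32 in CTX100 against PBS (adjusted p = 0.0228). In CTX140 against CTX100 it was 1.09 ± 0.29, which missed the threshold (adjusted p = 0.0654, 95% interval 0.47 to 1.70). The CTX100 call was lost without any of 5 libraries: the adjusted p was 0.0679 without PBS library 3, 0.0875 without PBS library 4, 0.0508 without CTX100 library 2, 0.0503 without CTX100 library 3 and 0.0561 without CTX100 library 5. The log2 fold change in these fits stayed between 1.55 and 1.87.

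Cxcl2, like Cxcl3 a product of activated macrophages and neutrophils as well as of epithelium, measured 58.0, 79.6, 52.1 and 36.5 CPM in PBS, 113, 129, 101, 112 and 259 CPM in CTX100, and 161, 126, 279, 211 and 433 CPM in CTX140. Again every treated library lay above every PBS library. The log2 fold change was 2.10 ± 0.39 (SE) in CTX140 against PBS (adjusted p = 0.00241, edgeR). In CTX100 against PBS it was 1.34 ± 0.38, short of the threshold (adjusted p = 0.0843). CTX100 library 5 stood apart at 259 CPM, against 129 CPM in the next CTX100 library, and without it that log2 fold change was 1.01 ± 0.33 (adjusted p = 0.178). Without CTX140 library 5 the adjusted p for CTX100 was 0.0491, just under the threshold.

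Cxcl1, the mouse ligand also known as KC, measured 38.3, 65.9, 61.8 and 47.6 CPM in PBS, 176, 121, 109.5, 118 and 226 CPM in CTX100, and 63.9, 73.8, 167, 371 and 366 CPM in CTX140. The CTX100 libraries all lay above the PBS libraries. The CTX140 libraries were split: libraries 4 and 5 held the highest values of all 14, and library 1 lay within the PBS range. The log2 fold change was 1.96 ± 0.49 (SE) in CTX140 against PBS (adjusted p = 0.0130, edgeR) and 1.49 ± 0.48 in CTX100 against PBS (adjusted p = 0.125). With no filter on low counts the CTX140 call was lost, at an adjusted p of 0.0506.

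Cxcl5, known as LIX in mice and made largely by epithelial and stromal cells, measured 68.8, 83.5, 112 and 45.5 CPM in PBS, 313, 208, 159, 158 and 345 CPM in CTX100, and 106, 125, 285, 458 and 417 CPM in CTX140. As for Cxcl1, the CTX100 libraries all lay above PBS, CTX140 library 1 lay within the PBS range, and CTX140 libraries 4 and 5 were the highest. The log2 fold change was 1.84 ± 0.45 (SE) in CTX140 against PBS (adjusted p = 0.0109, edgeR) and 1.61 ± 0.44 in CTX100 against PBS (adjusted p = 0.0803). Without CTX140 library 1 the adjusted p for CTX100 was 0.0451. The difference between the doses, CTX140 against CTX100, was 0.23 on the log2 scale (adjusted p = 0.781, 95% interval -0.62 to 1.09), and it was -0.017 without CTX140 library 4.

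Cxcr2, the receptor, had the smallest fold changes against PBS. It measured 28.5, 28.6, 24.0 and 20.3 CPM in PBS, 29.6, 25.9, 36.8, 41.1 and 45.8 CPM in CTX100, and 42.1, 32.0, 49.7, 48.6 and 45.7 CPM in CTX140. All CTX140 libraries lay above all PBS libraries, and CTX100 library 2 lay within the PBS range. The log2 fold change was 0.78 ± 0.18 (SE) in CTX140 against PBS (adjusted p = 0.00634, edgeR) and 0.50 ± 0.18 in CTX100 against PBS (adjusted p = 0.148).

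**Figure D1:**
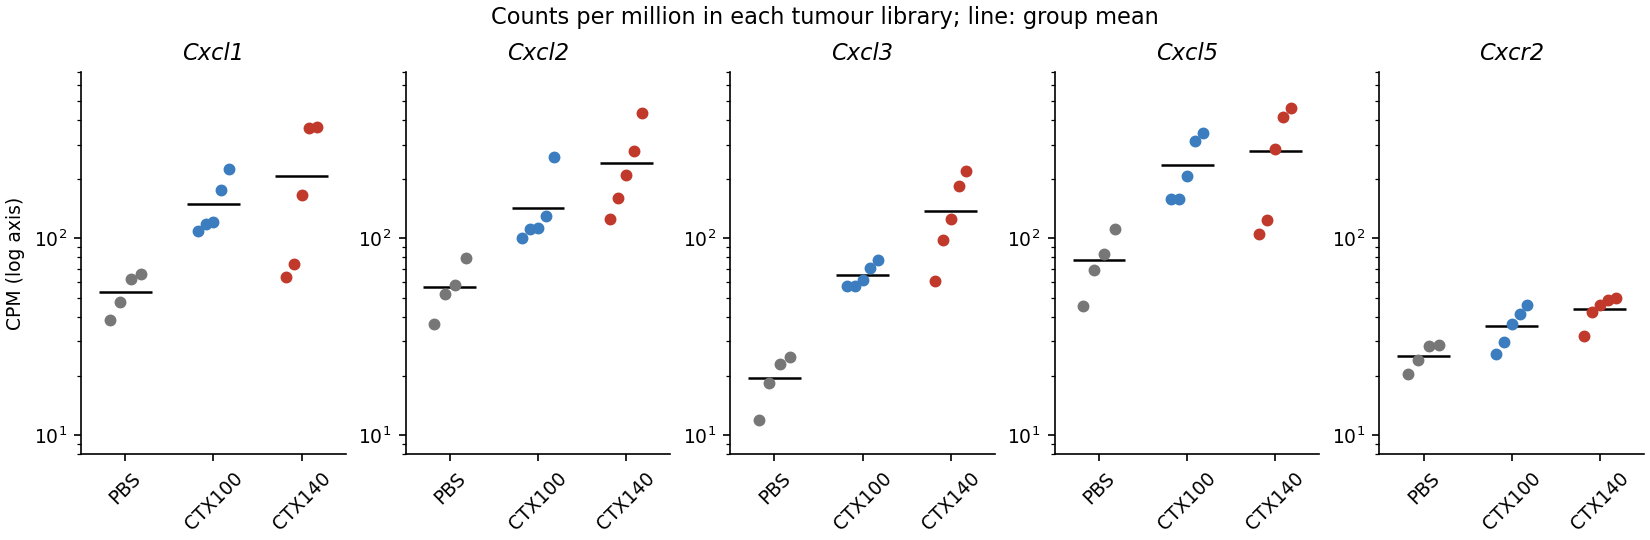
CPM (log axis) of the 4 ligand genes and Cxcr2 in each library, by dose; points are libraries sorted by value within a group, and the line is the group mean. The ligands' treated libraries lie above PBS except for the lowest CTX140 libraries of Cxcl1 and Cxcl5, and Cxcr2 spans 20.3 to 49.7 CPM over all 14 libraries.

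All 5 genes were called higher in CTX140 than in PBS, where 21.3% of the 15360 genes tested were called, 11.1% higher and 10.1% lower. In 3 of the 5, Cxcl2, Cxcl3 and Cxcr2, every CTX140 library lay above every PBS library, which held for 7.34% of all genes. By size of log2 fold change in this comparison, Cxcl3 ranked 228, Cxcl2 473, Cxcl1 553, Cxcl5 642 and Cxcr2 2204 of 15360. In CTX100 against PBS, 1 of the 5 was called higher, where 1.6% of all genes were called, 1.2% higher and 0.397% lower. There, all 4 ligands but not Cxcr2 had every CTX100 library above every PBS library, against 5.17% of all genes. Both comparisons use the same 4 PBS libraries, so they are not independent. None of the 5 was called between the doses by edgeR, where 1.25% of all genes were called, 0.775% higher and 0.475% lower in CTX140 than in CTX100. At an unadjusted p under 0.05 there were 2, Cxcl2 and Cxcl3. DESeq2 called 1 of the 5 there, Cxcl3 (adjusted p = 0.00490), and limma on log2(FPKM + 1) called 0. In none of the 5 did every CTX140 library lie above every CTX100 library, as 2.33% of all genes did. The 95% interval of the difference between doses included 0 for Cxcl1 (-0.46 to 1.41 on the log2 scale), Cxcl5 and Cxcr2 (-0.06 to 0.63).

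**Figure D2:**
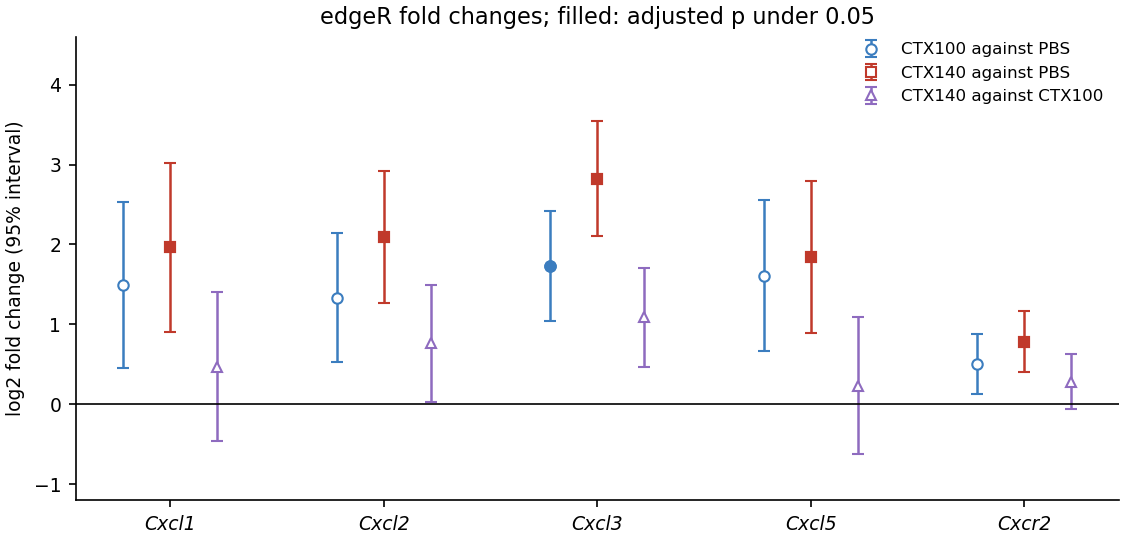
Log2 fold change and 95% interval of each gene in the 3 comparisons, from edgeR; filled markers passed an adjusted p of 0.05. All 5 CTX140 against PBS markers are filled, Cxcl3 is the 1 filled marker for CTX100 against PBS, and none is filled for CTX140 against CTX100.

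Levels of different genes were compared as deposited FPKM, which is per listed gene length. In PBS tumours Cxcl5 averaged 41.5 ± 15.1 FPKM, Cxcl1 28.4 ± 6.85, Cxcl2 27.2 ± 8.61, Cxcr2 8.28 ± 1.31 and Cxcl3 5.57 ± 1.66 FPKM (SD, n = 4). The ranges of the first 3 overlapped, as did those of Cxcr2 and Cxcl3. In CTX100 tumours the averages were 126 ± 46.8 FPKM for Cxcl5, 79.6 ± 26.6 for Cxcl1, 68.6 ± 31.8 for Cxcl2, 18.4 ± 2.57 for Cxcl3 and 11.7 ± 2.67 for Cxcr2 (SD, n = 5). In CTX140 tumours they were 149 ± 86.7 FPKM for Cxcl5, 117 ± 58.9 for Cxcl2, 111 ± 80.6 for Cxcl1, 39.4 ± 18.6 for Cxcl3 and 14.3 ± 2.33 for Cxcr2 (SD, n = 5). On this scale Cxcl3 lay above Cxcr2 in every library at both doses, the reverse of PBS, while the 3 higher ligands still overlapped.

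Summed over the 4 ligands, the level was 103 ± 26.6 FPKM in PBS, 293 ± 101 in CTX100 and 416 ± 226 in CTX140. Divided by the FPKM of Cxcr2, the ligand sum lay between 9.83 and 16.0 in PBS libraries, between 16.3 and 34.3 in CTX100 libraries and between 14.2 and 46.1 in CTX140 libraries. The CTX100 ratios thus did not overlap those of PBS, and the CTX140 ratios did. Cxcl3 made up between 4.25% and 7.14% of the ligand FPKM in PBS libraries, between 4.89% and 7.99% in CTX100 libraries and between 6.15% and 14.2% in CTX140 libraries, and these shares were not tested.

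**Figure D3:**
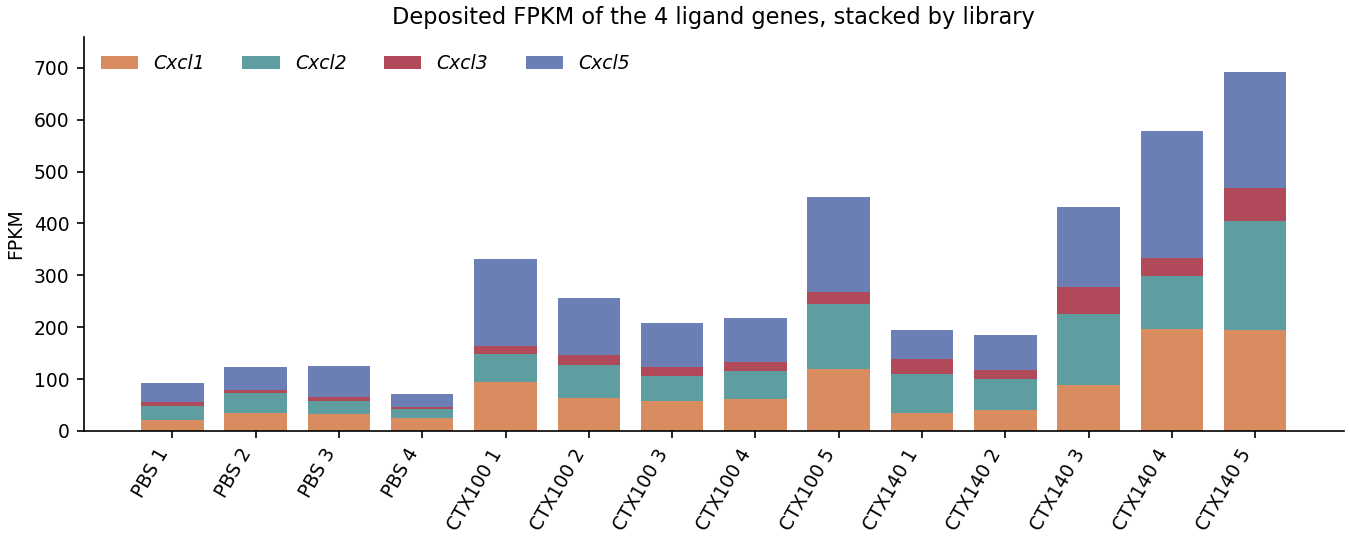
Deposited FPKM of Cxcl1, Cxcl2, Cxcl3 and Cxcl5 stacked for each of the 14 libraries, in order of dose and library number. The sum is highest in CTX140 libraries 4 and 5 and CTX140 libraries 1 and 2 are below every CTX100 library.

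The order among the ligands depended on the length used. The listed lengths of Cxcl1 (1875 bases), Cxcl2 (2068) and Cxcl3 (3498) equal the whole span of the gene, introns included. The main protein-coding transcripts in GENCODE M21 are 953, 1109 and 1016 bases long. Per coding transcript length, a choice made after seeing the data, the median share of Cxcl3 in the ligand sum was 10.7% in PBS, 15.6% in CTX100 and 18.1% in CTX140. Cxcl5 was the highest ligand in 3 of 14 libraries on that scale, and Cxcr2 was the lowest of the 5 in all 14. The change of order between Cxcl3 and Cxcr2 from PBS to treated libraries was therefore absent on that scale. Fold changes of a gene do not depend on its length. Of the 50-base windows of Cxcl2 transcripts, 5.84% also occur in Cxcl3 and in no other gene, so the counts of both genes are uncertain in that part. No window of Cxcl1 occurs in another gene. The shares found in any other gene were 4.29% for Cxcl3, with Cxcl2 among many such genes, 0.693% for Cxcl5 and 6.68% for Cxcr2.

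Within groups, the closest pairs of ligands were Cxcl1 with Cxcl5 and Cxcl2 with Cxcl3. After group means were removed, Cxcl1 and Cxcl5 were correlated across the 14 libraries (Pearson r = 0.93, adjusted permutation p = 0.0132; Spearman rho = 0.89, adjusted p = 0.0245). Without the 2 libraries farthest from the median of Cxcl1, r was 0.88. Cxcl2 and Cxcl3 were the other pair (r = 0.81, adjusted permutation p = 0.0195; rho = 0.85, adjusted p = 0.0245), with r = 0.80 without the 2 farthest libraries. Cxcr2 followed the mean of the 21 mature neutrophil markers (r = 0.77, adjusted permutation p = 0.0321; rho = 0.78, adjusted p = 0.0245; r = 0.77 without the 2 farthest). These 3 relations passed out of 25 computed, adjusted by Benjamini-Hochberg over the 25. The remaining ligand pairs also had positive r without passing. They ran from 0.62 for Cxcl1 with Cxcl3 (adjusted permutation p = 0.175) to 0.72 for Cxcl3 with Cxcl5 (adjusted permutation p = 0.0656). Cxcr2 had r of 0.41 with Cxcl5 up to 0.64 with Cxcl2, and it passed with no ligand. The Cxcl1 and Cxcl5 pair passed in all 16 alternatives tried, Cxcl2 with Cxcl3 in 12 and Cxcr2 with the neutrophil markers in 10. Losses for Cxcl2 with Cxcl3 came without PBS library 4 (r = 0.78), CTX100 library 5 (r = 0.87), CTX140 library 2 (r = 0.75) or CTX140 library 5 (r = 0.73). For Cxcr2 they came without PBS library 2 or 4, CTX100 library 3, 4 or 5, or CTX140 library 5, with r between 0.73 and 0.77. The 4 ligands had r of 0.54 to 0.68 with the neutrophil markers and of -0.74 to -0.55 with the macrophage markers; none of these passed, and 1 of the 4 in each set had an unadjusted permutation p under 0.05.

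**Figure D4:**
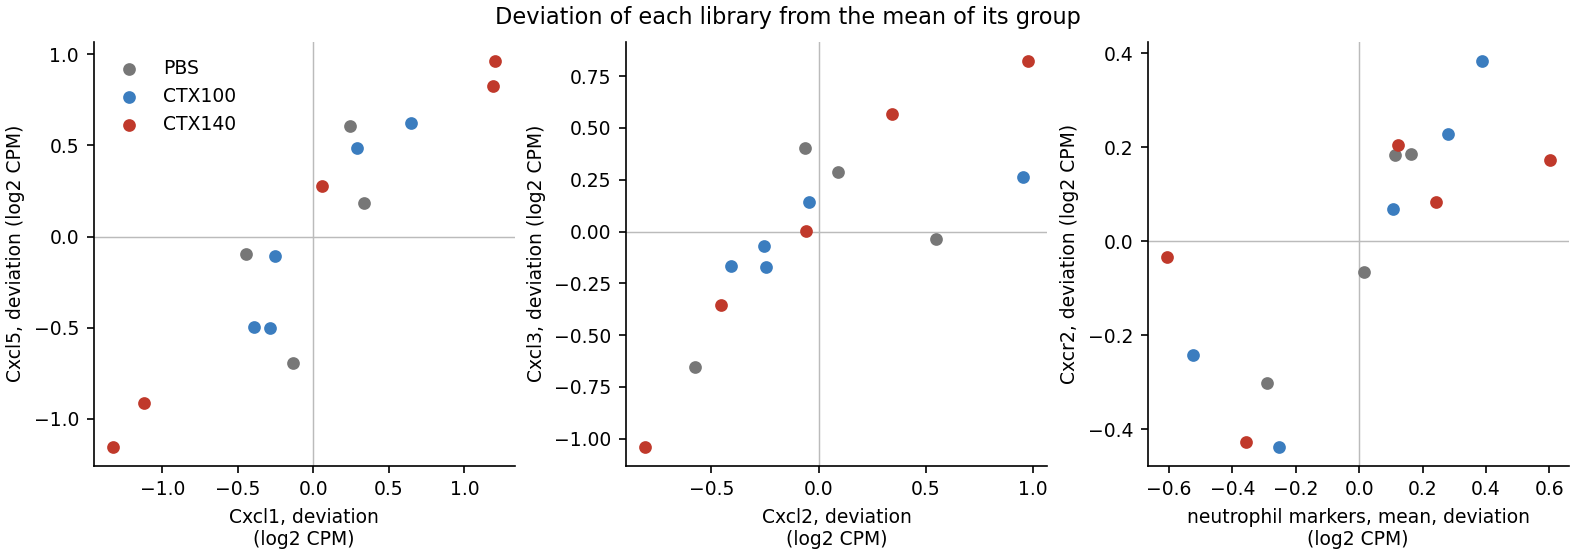
Deviation of each library from its group mean, in log2 CPM, for Cxcl5 against Cxcl1 (left), Cxcl3 against Cxcl2 (middle) and Cxcr2 against the mean of 21 neutrophil markers (right); points are the 14 libraries. Pearson r is 0.93, 0.81 and 0.77, and the CTX140 libraries span the widest range of Cxcl1.

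The split among CTX140 libraries in Cxcl1 and Cxcl5 ran with some of the cell type markers. CTX140 libraries 1 and 2, the low ones, had summed macrophage marker levels of 2046 and 4225 CPM, against 1679, 869 and 978 CPM in CTX140 libraries 3, 4 and 5. The summed neutrophil markers were 1384 and 1783 CPM in CTX140 libraries 1 and 2 and 2532, 3044 and 2750 CPM in the other 3. T cell marker sums ran the same way as the macrophage sums, at 447 and 145 CPM against 72.3, 53.4 and 44.6 CPM. So did the sums of mast cell, endothelial, skin keratinocyte and adipocyte markers. The monocyte sums did so only narrowly, at 230 CPM in CTX140 library 1 against 229 CPM in CTX140 library 3. The endothelial sums were 232 and 152 CPM against 118, 70.1 and 54.8 CPM. Fibroblast marker sums did not split this way, at 2020 and 4022 CPM against 2138, 2262 and 1465 CPM. Nor did those of carcinoma epithelium, at 1924 and 1249 CPM against 1731, 1806 and 1702 CPM. The part of these cell types in the ligand levels was not tested. Left out in turn, no CTX140 library ended the CTX140 against PBS call of Cxcl1 or Cxcl5.

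Genes whose within-group pattern was most like that of each chemokine, by Pearson r of log2 CPM over the 14 libraries among 12622 protein-coding genes, were as follows. For Cxcl1 they were Maff (r = 0.97), a small Maf transcription factor, Zfp143 (0.95) and Zfp503 (0.94). Those of Cxcl5 were Ptgs2 (0.96), the inducible cyclooxygenase, Maff (0.94) and Slpi (0.94), a secreted leukocyte protease inhibitor. Ptgs2 measured 426 ± 237 CPM in CTX140 and 334 ± 150 CPM in PBS (SD, n = 5 and n = 4), and Slpi 999 ± 492 and 929 ± 255 CPM in these groups. Neither passed the CTX140 against PBS test (adjusted p = 0.562 and 0.846, edgeR), and Maff did not either, with a log2 fold change of -0.21 ± 0.22 (adjusted p = 0.531). For Cxcl2 they were Isg20 (0.92), an exoribonuclease, Cyp4f18 (0.91), a cytochrome P450 that acts on leukotriene B4 in mice, and Zcchc9 (0.91). Isg20 rose in CTX140 against PBS by 0.89 ± 0.20 (adjusted p = 0.00600) and Cyp4f18 by 1.54 ± 0.42 (adjusted p = 0.0179) on the log2 scale, while Zcchc9 had a log2 fold change of -0.03. For Cxcl3 they were the low-count genes Slc32a1 (0.87), Ccno (0.87) and Atp6v0a4 (0.86). For Cxcr2 they were Asprv1 (0.87), an aspartic protease and itself in the neutrophil list, Mtrf1l (0.87) and Pus1 (0.85). These were picked for their likeness, which is a description.

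Of 4 other ligands and receptors of the axis, 3 were tested, and 2 of these were higher in CTX140 than in PBS. Over all genes tested 11.1% were called higher in this comparison. Ackr1, the atypical receptor that binds these ligands without G-protein signalling, measured 1.99 ± 0.97 CPM in CTX140 and 0.150 ± 0.187 CPM in PBS (SD, n = 5 and n = 4). Its log2 fold change was 3.62 ± 0.73 (adjusted p = 0.00298, edgeR), with a PBS level near the floor, at 10 counts over all PBS libraries. Ppbp, the platelet precursor of a Cxcr2 ligand, measured 6.04 ± 2.97 CPM in CTX140 and 2.14 ± 0.74 CPM in PBS and rose by 1.49 ± 0.41 (adjusted p = 0.0186). Cxcr1, the second receptor of the family, did not pass (0.83 ± 0.44, adjusted p = 0.186). In CTX100 against PBS edgeR called 0 of these 3, with 2 at an unadjusted p under 0.05, 2 by DESeq2 and 0 by limma. Ppbp and Pf4, platelet factor 4, lie between Cxcl5 and Cxcl3 in the cluster. Pf4 rose by 2.21 ± 0.43 in CTX140 against PBS (adjusted p = 0.00342). The 6 tested genes of the 7 protein-coding genes in the cluster, the 4 ligands already counted among them, were thus all called higher there. The seventh, Cxcl15, a lung chemokine, had 73 counts over all libraries and was not tested.

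Most genes of a list of cytokines and receptors, drawn up as possible inducers of the ligands, were also higher. Whether they induced the ligands here was not tested. Of 11 tested genes in this list of 13, 8 were higher and 1 was lower in CTX140 than in PBS. Over all genes 11.1% were called higher and 10.1% lower there. The list had a median log2 fold change of 1.64, against 0.02 over all genes tested. Not tested were Il17a, with 0 counts, and Il17f, with 98 counts over all libraries. Csf2, the growth factor GM-CSF, measured 3.62 ± 2.21 CPM in CTX140 and 0.125 ± 0.116 CPM in PBS, a log2 fold change of 4.77 ± 0.67 (adjusted p = 0.000315, edgeR). Its PBS level was near the floor, at 8 counts over all PBS libraries. Il1a rose by 2.18 ± 0.28 (adjusted p = 0.000165) and Osm, oncostatin M, by 1.59 ± 0.23 (adjusted p = 0.000371). The others that rose were Il1b, Tnf, Il6, Il1f9 and Csf3, and the 1 that fell was Il1r1, the receptor of interleukin-1 (log2 fold change -0.78, adjusted p = 0.00126). At the lower dose 4 of the 11 rose against PBS, Il1a, Il1b, Osm and Csf2, with a median of 0.94 against -0.01 over all genes. Over all genes 1.2% were called higher in that comparison.

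Of 17 NF-κB factors and targets 6 passed in CTX140 against PBS, all higher, where 11.1% of all genes were called higher, and the list median log2 fold change was 0.38. Birc3, an inhibitor of apoptosis, rose by 0.68 ± 0.12 (adjusted p = 0.00136, edgeR), Tnfaip3, the feedback inhibitor A20, by 0.53 ± 0.10 (adjusted p = 0.00235), and Sod2, mitochondrial superoxide dismutase, by 0.67 ± 0.15 (adjusted p = 0.00485). Rela, a subunit of NF-κB itself, measured 80.4 ± 6.18 CPM in CTX140 and 80.3 ± 4.37 CPM in PBS, and Nfkb1 had a log2 fold change of -0.15, and neither passed. At the lower dose 1 of the 17 passed against PBS, Tnip1, a partner of A20 (0.55 ± 0.10, adjusted p = 0.0227). Over all genes 1.2% were called higher in CTX100 against PBS. Of 8 regulators of chemokine mRNA decay, 3 passed in CTX140 against PBS, all higher, though the list median was -0.07. They were Zfp36, tristetraprolin, which promotes decay (0.61 ± 0.15, adjusted p = 0.00838), Zc3h12a, the ribonuclease Regnase-1 (0.64 ± 0.15, adjusted p = 0.00927), and Arid5a, which stabilises inflammatory mRNAs (0.49 ± 0.13, adjusted p = 0.0165). Zc3h12a and Arid5a had also passed in CTX100 against PBS (0.75, adjusted p = 0.0271, and 0.58, adjusted p = 0.0408), where 1.2% of all genes were called higher.

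Downstream of the receptor, 3 of 13 signalling genes passed in CTX140 against PBS, all lower. With 21.3% of all genes called there, 10.1% lower, the number called in this list is near that over all genes. Plcb3, a phospholipase C, fell by 0.52 in log2 terms (adjusted p = 0.00522, edgeR), and the inhibitory G-protein subunits Gnai2 and Gnai3 had log2 fold changes of -0.42 (adjusted p = 0.0172) and -0.36 (adjusted p = 0.0190). These 3 genes are widely expressed. The haematopoietic members such as Rac2 (0.66, adjusted p = 0.226) and Pik3cg (0.38, adjusted p = 0.475) did not pass, and the median of the list was 0.38. In CTX100 against PBS edgeR called 0 of the 13, with 1 at an unadjusted p under 0.05 and 0 by DESeq2 and by limma. Among 16 genes of neutrophil adhesion and other attraction, 5 were higher and 1 was lower in CTX140 than in PBS, with a median of 0.39. Over all genes 11.1% were called higher there and 10.1% lower. Ccl4 rose by 2.33 ± 0.24 (adjusted p = 4.11e-05) and Ccl3 by 2.62 ± 0.34 (adjusted p = 0.000280), both chemokines of activated myeloid cells, and Ltb4r1, the leukotriene B4 receptor, by 0.81 ± 0.18 (adjusted p = 0.00528). The leukocyte adhesion molecule Icam1 and the chemokine receptor Ccr1 were the other 2 higher genes, and Sele, endothelial E-selectin, was lower (log2 fold change -1.12, adjusted p = 0.0392).

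Genes that mark mature neutrophils, the main cells carrying Cxcr2, were higher in part. In CTX140 against PBS 7 of 21 passed, all higher, where 11.1% of all genes were called higher, and the list median log2 fold change was 0.56. The 4 defining markers given here missed the threshold. S100a8 measured 430 ± 215 CPM in CTX140 and 358 ± 153 CPM in PBS, S100a9 754 ± 349 and 642 ± 225 CPM, Csf3r 80.2 ± 21.5 and 68.9 ± 6.70 CPM, and Ly6g 2.08 ± 2.30 and 1.85 ± 0.55 CPM (SD, n = 5 and n = 4). Their log2 fold changes lay between 0.16 for Ly6g and 0.26 for S100a8, with adjusted p between 0.446 and 0.879 (edgeR). Clec4d, a myeloid lectin receptor, rose by 1.28 ± 0.23 (adjusted p = 0.00175) and G0s2, a lipase inhibitor, by 1.65 ± 0.31 (adjusted p = 0.00229). Retnlg, a secreted protein of mature neutrophils named after its values were seen, ran the other way without passing (log2 fold change -1.49 ± 0.96, adjusted p = 0.286). It measured 1.44, 1.96, 5.95, 57.0 and 18.1 CPM in CTX140 and between 34.4 and 63.4 CPM in the 4 PBS libraries, and CTX140 libraries 1, 2, 3 and 5 lay below every PBS library. The summed level of the list lay between 1236 and 2233 CPM in PBS, between 1292 and 2514 CPM in CTX100 and between 1384 and 3044 CPM in CTX140, so all groups overlapped.

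**Figure D5:**
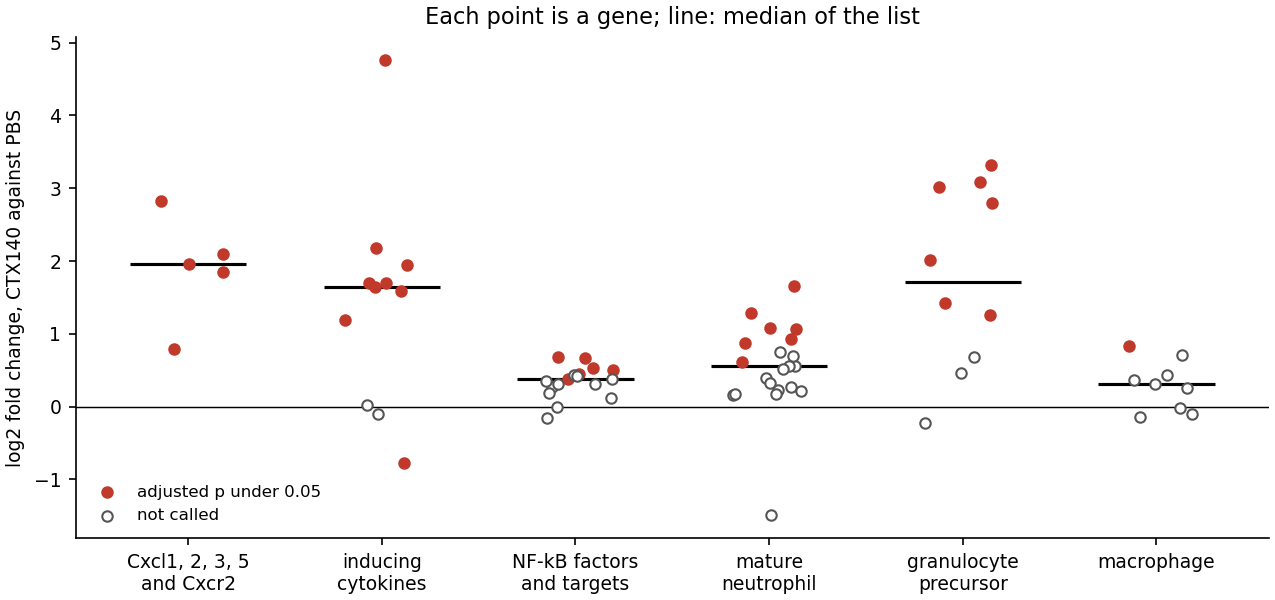
Log2 fold change in CTX140 against PBS of each tested gene of 6 lists; filled points passed an adjusted p of 0.05 and the line is the list median. The medians are 1.96 for the chemokines and Cxcr2, 1.64 for the cytokines, 0.38 for NF-κB genes, 0.56 for mature neutrophil markers, 1.72 for granulocyte precursor markers and 0.31 for macrophage markers.

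Markers of other cells that can make the ligands moved unequally. Of 9 macrophage markers 1, Cd68, was higher in CTX140 than in PBS, a share near the 11.1% over all genes, and the summed levels overlapped (869 to 4225 CPM in CTX140, 1270 to 1940 CPM in PBS). Of 9 fibroblast markers 8 were higher, and their summed level was 1465 to 4022 CPM in CTX140 and 640 to 1018 CPM in PBS, without overlap. Of 6 carcinoma epithelium markers 3 were higher, Epcam, Krt19 and Cdh1, while those that did not pass included Krt8 and Krt18: Krt8 had a log2 fold change of -0.06 and Krt18 one of -0.17. Skin keratinocyte and adipocyte markers were also higher, 2 of 3 and 4 of 4 tested, with summed levels of the tested markers of 13.9 to 32.8 and 15.7 to 98.6 CPM in CTX140, against 3.51 to 7.45 and 0.275 to 3.98 CPM in PBS. Within groups the mean of the fibroblast markers had r of -0.77 to -0.51 with the 4 ligands and of -0.38 with Cxcr2; none passed, and 2 had an unadjusted permutation p under 0.05. The part of these cells in the rise of the ligands was not tested.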

How the data were processed

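Whole-tumour RNA of 14 libraries was sequenced on the Illumina platform, per the labels' protocols. The authors deposited whole-number counts for each gene, which carry no normalisation, and, for the same genes, FPKM values of their own making. Per the submitters' processing notes the build was mm10 and DESeq2 was used. Not given in the sources used here were the aligner, the counter and the strand setting. Groups were taken from the treatment labels.

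Counts were fitted with edgeR 4.0.16 (R 4.3.3): TMM scaling, filterByExpr, a robust quasi-likelihood fit of all 3 groups, and Benjamini-Hochberg adjustment over 15360 genes, with a threshold of 0.05. Standard errors and 95% intervals are on the log2 scale. The steps were tested on simulated data. DESeq2 1.42.0, limma 3.58.1 on log2(FPKM + 1) and log2(FPKM + 0.1), other scalings and filters (none, or at least 1 CPM in 4 libraries), fits of 2 groups, a replicate block and each library left out were alternatives. Correlations used log2 CPM (prior count 2) less group means, with 100000 permutations within groups, two-sided. Genes named beside the 5 were up to 3 per pathway list by smallest p in CTX140 against PBS, 4 fixed and 2 further neutrophil markers, and 3 per gene by likeness; other named genes, such as Rela, Rac2, Il1r1, Sele, Epcam, Pf4 and Hpn, were chosen after their values were seen. The 5 genes and the lists were chosen with earlier results of these data known. Il36g was matched as Il1f9, the symbol in the table. Promoters and transcripts came from RefSeq (GRCm38.p6) and GENCODE M21.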

Additional observations from a re-analysis of the deposited data

Results flagged for a closer look

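Among 138 groups of values examined for a library far from the others, 10 held one, each time the highest of its group. For normally distributed values chance alone gives such a gap in about 1 group in 20. Whether CPM values are so distributed was not tested, so that rate may not hold here. Of the 5 genes, Cxcl2 had such a library, at 259 CPM in CTX100 library 5 against 129 CPM in the next CTX100 library. The same library was the highest, apart from the rest, for Clec4d (163 CPM, next 96.8), G0s2 (104 CPM, next 48.3), Isg20 (117 CPM, next 87.8) and Cyp4f18 (37.7 CPM, next 14.0). Isg20 and Cyp4f18 had been picked for their likeness to Cxcl2, so their gaps are not independent of that of Cxcl2. CTX100 library 3 was highest for Ackr1 (1.80 CPM, next 0.779) and CTX100 library 1 for Plcb3 (134 CPM, next 119). In CTX140, library 5 stood apart for Il1a (19.9 CPM, next 11.2) and library 4 for Ly6g (6.08 CPM, next 1.77). In PBS, library 2 stood apart for Mtrf1l (19.1 CPM, next 14.0).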

How the results depend on the processing

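The CTX140 against PBS increase of the 5 genes kept its direction in all 23 alternatives per gene, and the 1 lost call was that of Cxcl1 with no filter. In CTX100 against PBS the count of the 5 called was 1; it was 0 with no filter, 4 with only these groups fitted and 3 with DESeq2, and 0 to 2 with a library left out. Over all genes, CTX100 against PBS gave 245 calls, 529 with only these groups fitted, 839 with DESeq2 and 148 with limma on log2(FPKM + 1); leaving out a library gave 17 (without PBS library 3) to 686 (without PBS library 2). List genes numbered 17 there, 31 with DESeq2, 10 with limma, and 0 (without PBS library 4) to 25 (without PBS library 2). In CTX140 against PBS the 3268 calls became 1878 with only these groups fitted and 1975 to 3894 with a library left out (without PBS library 3 and PBS library 2), the list genes numbered 78, and 60 to 80, and the 5 genes stayed at 5. Between the doses, CTX140 against CTX100, all genes gave 192 calls, 1250 with DESeq2 and 0 to 1007 with a library left out (0 without CTX100 library 2, 3 or 4 or CTX140 library 3, and 1007 without CTX140 library 5); list genes gave 5, 8 with the stricter filter, 35 with DESeq2 and 0 to 31; the 5 genes gave 0, 1 with DESeq2 and 0 in every fit with a library left out. The log2 difference of Cxcl5 between the doses lay between -0.017 (without CTX140 library 4) and 0.44 (without CTX140 library 1) with a library left out. The cause of these changes was not tested. The correlations that passed numbered 3, and 1 to 6 with a library left out. The median Cxcl3 share of ligand FPKM over 14 libraries was 7.49%, and 14.9% per coding transcript length, an alternative added after seeing the data.

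Same-numbered libraries correlated between -0.193 and 0.431 after group means were removed. Libraries of different number were not compared, so these values cannot tell whether replicate numbers pair the libraries. With a replicate block the 5 genes gave 1, 5 and 0 calls in CTX100 against PBS, CTX140 against PBS and CTX140 against CTX100, as without it. Under the block all genes gave 293 and list genes 15 calls between the doses, against 192 and 5 without it.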

Other observations

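Several other CXC chemokines were higher as well. Of 13 tested genes among 14 other Cxcl and Cxcr genes, 6 were called higher in CTX140 than in PBS (median log2 fold change 1.16). Over all genes tested 11.1% were called higher there. Cxcl10, an interferon-induced attractant of T cells, measured 53.6 ± 12.7 CPM in CTX140 and 18.2 ± 5.27 CPM in PBS (SD, n = 5 and n = 4; log2 fold change 1.56 ± 0.22, adjusted p = 0.000371, edgeR). Cxcl11, a ligand of the same receptor, measured 55.4 ± 26.2 CPM in CTX140 and 13.1 ± 4.89 CPM in PBS (2.08 ± 0.34, adjusted p = 0.00112). Both had also passed in CTX100 against PBS, at 1.17 and 1.70 (adjusted p = 0.0218 and 0.0270). Cxcl12, a stromal chemokine, measured 123 ± 77.4 CPM in CTX140 and 6.60 ± 5.45 CPM in PBS (4.21 ± 0.61, adjusted p = 0.000567). Cxcl14, Pf4 and Cxcr6 were the other 3.

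Of 10 tested granulocyte precursor markers, 7 were called higher in CTX140 than in PBS (median log2 fold change 1.72). The genes of this list were named after their values were seen. Mpo, the myeloperoxidase of primary granules, measured 5.82 ± 2.99 CPM in CTX140 and 0.721 ± 0.538 CPM in PBS (3.01 ± 0.54, adjusted p = 0.00148, edgeR). Cebpe, a transcription factor of granulocyte maturation, measured 2.05 ± 0.62 CPM in CTX140 and 0.233 ± 0.0711 CPM in PBS (3.09 ± 0.38, adjusted p = 0.000118). The PBS levels of both were low, at 45 counts for Mpo and 15 for Cebpe over all PBS libraries. Camp, Ngp and Lcn2 did not pass, with log2 fold changes of 0.47, -0.22 and 0.68. Among the remaining marker lists, those called higher in CTX140 than in PBS were 5 of 6 tested mast cell markers, 3 of 4 monocyte markers, 2 of 6 T cell markers and 1 of 6 endothelial markers. Over all genes tested 11.1% were called higher in this comparison, and the endothelial count is near that share.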
